A study of Mus musculus with 8 samples.

Results

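Amino acid transporters of tumour stromal cells were examined in RNA-seq libraries of mouse cells sorted by a reporter of Adam12. They are the 61 genes, of 53801 in the count table, whose symbol places them in solute carrier family 1, 3, 6, 7, 36, 38 or 43. Of these, 38 had a mean of at least 10 raw counts over the 8 libraries and are described with values. The other 23 had a lower mean, and 3 of them (Slc38a5, Slc6a16 and Slc7a12) had no read in any library. The name rule also takes in relatives within the families that carry creatine, taurine, monoamines or purine bases in place of amino acids.

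The cells came from MO5 melanomas, tumours grown under the skin from B16 mouse melanoma cells that express ovalbumin. The host mice carried a bacterial artificial chromosome in which Adam12 regulatory sequence drives Cre and GFP, so that GFP marks cells in which this transgene is active. PDPN+ PDGFRα+ stromal cells without CD45 or CD31 were split into GFP+ (ADAM12+) and GFP- (ADAM12-) cells, with 4 libraries in each group. Both groups carried the same transgene and came from the same kind of tumour, and the labels name no treatment. The study's methods and text give mice of 8 to 12 weeks at tumour implantation, on the C57Bl/6 background, and tumours taken at day 8, and use n as the number of mice unless otherwise stated. The labels do not tie libraries to mice, so that p-values measure the spread between these libraries.

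Amino acids cross membranes through carriers with distinct partners and driving forces. Heterodimeric exchangers pair a light chain of family 7 with a heavy chain of family 3, and import large neutral amino acids, arginine or cystine against an efflux of other amino acids. Sodium-coupled carriers of families 1, 6 and 38 accumulate glutamate, glutamine, alanine or glycine, and so supply the substrates that exchangers hand back. In many cells a shortage of amino acids raises the transcription factor ATF4, which is known to act on several of these carrier genes, while amino acids in the lysosome and cytosol are sensed by mTORC1.

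Total counts ran from 883144 reads in GFP- replicate 3 to 31666734 in GFP+ replicate 4. Adam12 had a normalised count (raw count divided by the size factor of the library) of 1362 ± 357 in GFP- and 2302 ± 484 in GFP+ libraries (SD, n = 4). The log2 ratio of GFP+ to GFP- (the fitted log2 fold change) was 0.75 ± 0.24 (SE, adjusted p = 0.0266 by DESeq2 and 0.0638 by edgeR), and the DESeq2 adjusted p was 0.0689, 0.0852, 0.0767 and 0.117 without GFP- replicate 3, GFP- replicate 4, GFP+ replicate 2 and GFP+ replicate 4. Fibroblast markers summed to normalised counts of 253600 to 559300 in GFP- and 666200 to 764400 in GFP+ libraries, and 6 of 8 were higher in GFP+. Melanocyte markers summed to 28630 to 85530 in GFP- and 5787 to 14780 in GFP+ libraries. Of these 13 markers 12 were lower in GFP+ and Mc1r was at 0 in every library. Leukocyte markers summed to 710.9 to 4681 in GFP- and 669.9 to 3598 in GFP+ libraries, with 0 of 8 tested called by DESeq2 or edgeR, 0 at an unadjusted p under 0.05, and Itgam at 0 throughout. The corresponding sums were 1692 to 2981 and 1512 to 2137 for Schwann cell markers (3 of 6 tested lower), and 1492 to 2923 and 1892 to 3549 for endothelial markers (1 of 6 tested lower).

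Of the 38 transporter genes, 6 differed between GFP+ and GFP- cells at a DESeq2 adjusted p under 0.05. Slc1a3, a glutamate and aspartate carrier, and Slc43a3, a purine base carrier, were higher in GFP+ cells. Slc6a17, a vesicular carrier of neutral amino acids, Slc38a1, a sodium-coupled glutamine carrier, Slc7a5, the large neutral amino acid exchanger LAT1, and Slc7a1, the arginine and lysine carrier CAT1, were lower. The called share was 15.8%, beside 9.42% of all 15283 genes tested and 9.62% of tested genes that averaged at least 10 raw counts. Across all genes tested, 4.66% were called higher and 4.76% lower in GFP+. The edgeR quasi-likelihood test called the same 6 genes, of 34 transporter genes that it tested, beside 5.13% of all genes that it tested. In 7 transporter genes the groups did not overlap, namely the 6 called genes and Slc1a5, beside 12.7% of genes averaging at least 10 raw counts.

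Not every described gene reached 10 raw counts in both groups. Slc7a10, Slc36a2, Slc1a2 and Slc6a7 had a mean of at least 10 only in GFP+ libraries, of which replicates 2 and 4 were deeper than every GFP- library, and Slc6a15 only in GFP- libraries. None of these 5 was called by DESeq2, and the minimum count itself favours the sign of their log2 ratios, so these are plotted but not read, and no tally of signs or median is given over the 38. The plot of fold changes shows the log2 ratio of each gene by class.

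**Figure D1:**
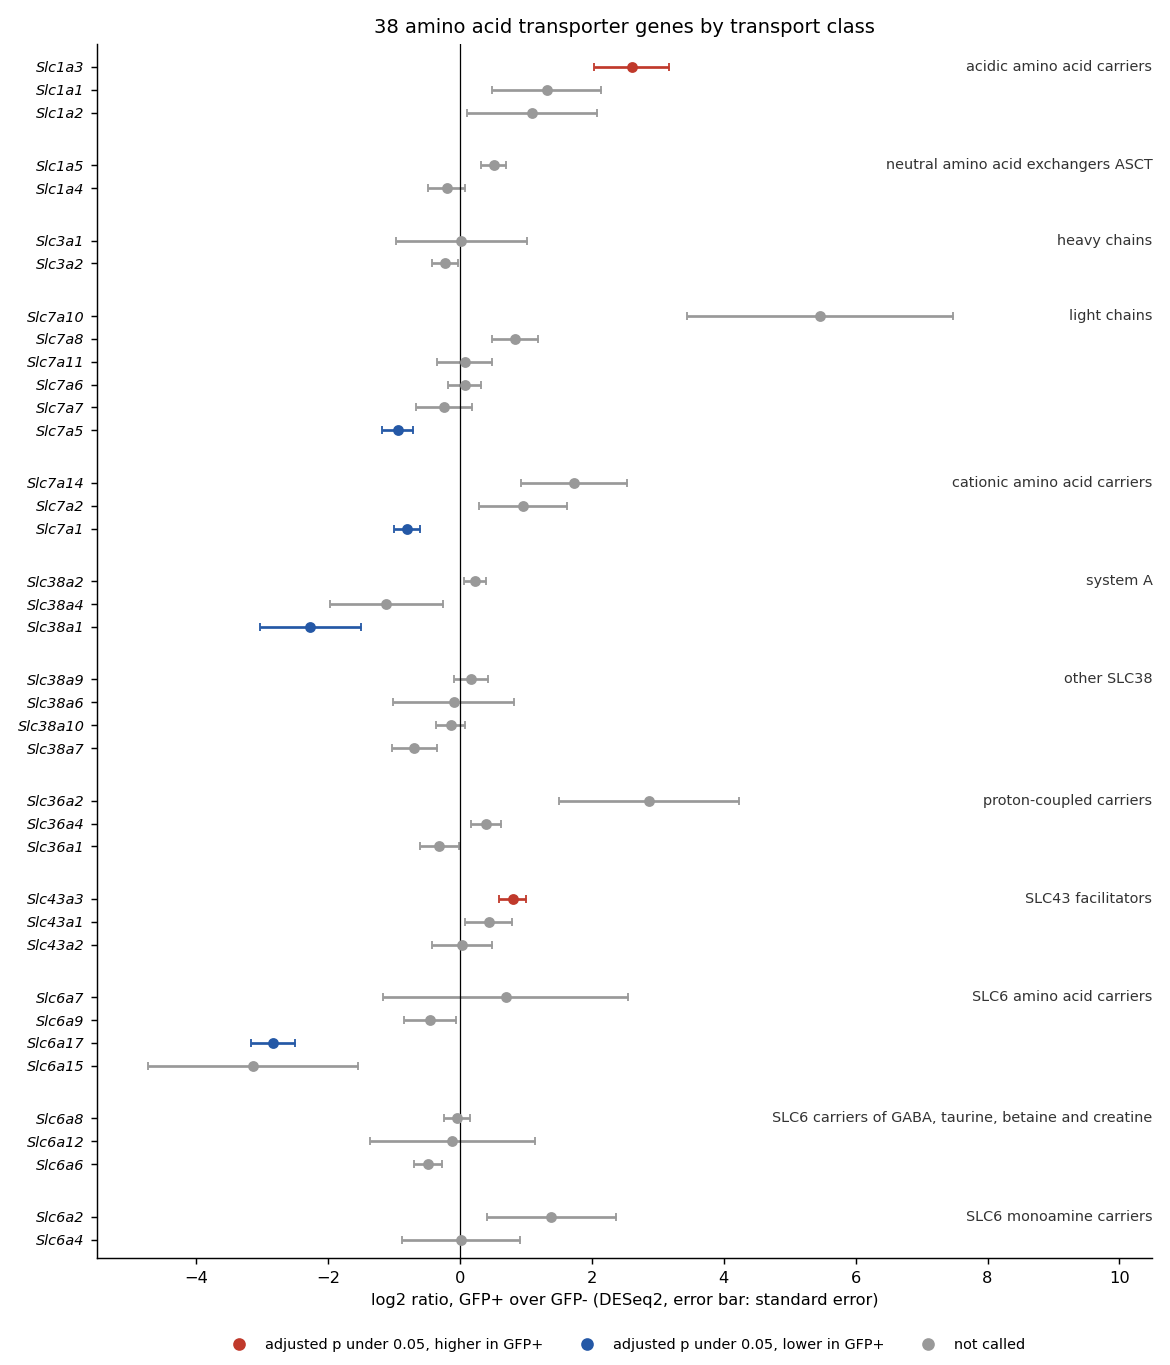
Log2 ratio of 38 amino acid transporter genes, GFP+ over GFP- (horizontal axis), ordered by transport class. Points are DESeq2 estimates and bars standard errors, coloured where the adjusted p was under 0.05. The 6 called genes lie in 6 classes, between -2.83 for Slc6a17 and 2.61 for Slc1a3.

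Promoter windows are shown first for called members that had one, because members called in the same direction can be read side by side in them. RefSeq windows (GRCm38.p6) were at hand for 27 of the 38 symbols, and those of Slc6a17, Slc7a1 and Slc1a3 are printed with that of Slc7a11, which was not called and was added after its sequence was seen. Each sequence holds the 250 bases before a transcript start, 5′ to 3′ on the strand of the gene, which is the minus strand in all 4. Capitals mark TGACTCA on either strand (TGAGTCA as its complement), the AP-1 site, or TGATGNAA on either strand, the core letters of the amino acid response element to which ATF4 binds. The windows lie at chr3:107518019-107518268 (Slc6a17), chr5:148399905-148400154 (Slc7a1), chr15:8710808-8711057 (Slc1a3) and chr3:50443614-50443863 (Slc7a11).
Slc6a17: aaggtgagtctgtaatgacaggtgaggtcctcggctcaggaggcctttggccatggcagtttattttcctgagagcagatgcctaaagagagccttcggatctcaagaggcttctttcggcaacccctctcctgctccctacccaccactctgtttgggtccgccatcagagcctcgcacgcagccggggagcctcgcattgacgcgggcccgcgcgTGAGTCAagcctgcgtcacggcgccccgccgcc
Slc7a1: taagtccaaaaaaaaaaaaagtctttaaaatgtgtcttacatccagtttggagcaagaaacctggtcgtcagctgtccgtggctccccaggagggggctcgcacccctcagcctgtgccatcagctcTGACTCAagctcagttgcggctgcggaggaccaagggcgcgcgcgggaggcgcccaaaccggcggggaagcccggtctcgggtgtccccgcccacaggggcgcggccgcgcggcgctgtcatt
Slc1a3: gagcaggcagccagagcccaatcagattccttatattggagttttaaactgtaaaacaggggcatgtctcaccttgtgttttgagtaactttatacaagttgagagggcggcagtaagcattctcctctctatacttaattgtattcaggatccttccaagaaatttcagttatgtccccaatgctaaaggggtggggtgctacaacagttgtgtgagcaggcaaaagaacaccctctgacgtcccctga
Slc7a11: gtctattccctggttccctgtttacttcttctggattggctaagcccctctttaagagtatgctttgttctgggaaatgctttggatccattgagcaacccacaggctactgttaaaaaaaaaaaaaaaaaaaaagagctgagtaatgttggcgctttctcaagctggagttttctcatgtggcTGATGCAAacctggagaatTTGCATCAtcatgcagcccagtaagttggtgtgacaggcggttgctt
TGACTCA occurred at bases -33 to -27 in Slc6a17 and at -123 to -117 in Slc7a1, counted back from the start at -1. These letters were present in 4.46% of all 32851 promoter windows and in 3 of 43 windows of the transporter genes, the other being Slc3a1. TGATGNAA occurred in 3.45% of all windows, and in 3 of the 43, of Slc7a11 and Slc7a7. In Slc7a11 it occurred at -66 to -59 and at -47 to -40. The cyclic AMP response element TGACGTCA and the E-box CACGTG were searched as well, with matches in 1.55% and 6.02% of all windows and in 1 and 4 of the 43. The second RefSeq windows of Slc6a17 and Slc7a1 and the window of Slc1a3 held none of the 4 motifs. A match is only a run of letters. GC content was 62.0% in the printed window of Slc6a17 and 62.4% in that of Slc7a1, with 18 and 21 CpG dinucleotides, and 44.8% with 2 CpG dinucleotides in that of Slc1a3.

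Among carriers of acidic amino acids, which take up glutamate and aspartate with sodium, Slc1a3 was called higher in GFP+ cells. Slc1a3 (ENSMUSG00000005360) encodes GLAST and lies on the minus strand of chromosome 15, from 8634124 to 8710764 (GRCm38). Its normalised counts in GFP- replicates 1 to 4 were 6.78, 30.1, 65.9 and 19.4, and in GFP+ replicates 1 to 4 they were 154, 84.1, 164 and 204. Every GFP+ library lay above every GFP- library, by the least margin between GFP+ replicate 2 and GFP- replicate 3. The 65.9 of GFP- replicate 3 rested on 6 reads and the 6.78 of GFP- replicate 1 on 5. The log2 ratio was 2.61 ± 0.57 (SE), a 6.09-fold higher level (adjusted p = 1.98e-04 by DESeq2 and 0.0345 by edgeR). Slc1a1 had a log2 ratio of 1.31 ± 0.82 (SE, DESeq2 adjusted p = 0.374), and of 2.30 without GFP- replicate 2. Slc1a2, with 9, 5, 2 and 3 reads in GFP- replicates 1 to 4, had a DESeq2 adjusted p of 0.586. The remaining acidic carriers, Slc1a6 and Slc1a7, had fewer than 10 counts on average.

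The exchangers of alanine, serine, cysteine and glutamine gave no call. Slc1a5, the glutamine exchanger ASCT2, had normalised counts of 1353, 983, 1384 and 972 in GFP- replicates 1 to 4 and of 1921, 1641, 1546 and 1512 in GFP+ replicates 1 to 4. The groups did not overlap, and the log2 ratio was 0.51 ± 0.19 (SE). The DESeq2 adjusted p was 0.0645 and the edgeR adjusted p 0.110, while limma gave 0.0291. Over the 18 other settings tried, Slc1a5 passed the threshold in 5, among them the fits without GFP- replicate 1 (0.0373) and without GFP- replicate 3 (0.0271). Slc1a4 (ASCT1) had 130 ± 11.8 in GFP- and 115 ± 23.1 in GFP+ libraries (SD, n = 4, DESeq2 adjusted p = 0.770).

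In the heterodimeric exchangers, 1 of the light chains was called and the shared heavy chain was not. Slc7a5 (ENSMUSG00000040010, chromosome 8, 121881150 to 121907694, minus strand) had normalised counts of 1604, 1688, 1231 and 1837 in GFP- and of 1208, 746, 724 and 658 in GFP+ replicates 1 to 4. GFP+ replicate 1 stood close under the lowest GFP- library, replicate 3, and the other 3 GFP+ libraries were well below both. Slc7a5 was 1.92-fold lower in GFP+ cells, with a log2 ratio of -0.94 ± 0.24 (SE, adjusted p = 0.00202 by DESeq2 and 0.0224 by edgeR). Its heavy chain partner Slc3a2 (4F2hc, CD98) had 1506, 1381, 1187 and 1769 in GFP- and 1547, 1134, 1324 and 1041 in GFP+ replicates 1 to 4. These ranges overlapped, and the log2 ratio of Slc3a2 was -0.22 with a 95% interval from -0.61 to 0.16 (DESeq2 adjusted p = 0.574). Per length, as TPM (counts per kilobase of exon scaled to the same sum in each library), Slc7a5 was present at a ratio to Slc3a2 of 1.04 ± 0.084 in GFP- and 0.623 ± 0.092 in GFP+ libraries (SD, n = 4). That ratio was chosen after the values were seen and was not tested.

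Other light chains gave no call. Slc7a8, the exchanger LAT2, whose substrates resemble those of LAT1, had 119, 271, 198 and 133 in GFP- and 447, 300, 304 and 234 in GFP+ replicates 1 to 4, so that GFP- replicate 2 overlapped the GFP+ range. The log2 ratio of Slc7a8 was 0.84 ± 0.35 (SE). Its DESeq2 adjusted p was 0.115, and 0.0172 without GFP- replicate 2, at a log2 ratio of 1.17. Slc7a8 passed the threshold in only that 1 of the 18 other settings. Over these, its log2 ratio went down to 0.65 and its DESeq2 adjusted p up to 0.327. Slc7a11, the cystine and glutamate exchanger xCT, had 102 ± 24.7 in GFP- and 105 ± 51.3 in GFP+ libraries (SD, n = 4), with a log2 ratio of 0.07 and a 95% interval from -0.74 to 0.88. Slc7a10, the alanine, serine and cysteine exchanger Asc-1, had no read in any GFP- library or in GFP+ replicate 1, and 44, 28 and 31 reads in GFP+ replicates 2, 3 and 4. Since Slc7a10 reached the minimum count only through GFP+ libraries, no fold is given. It was not called (DESeq2 adjusted p = 0.0648), and edgeR did not test it. Over the 7 other settings that tested Slc7a10, its DESeq2 adjusted p ran from 0.0207, without GFP- replicate 3, to 0.198. It passed the threshold in 1 of them and is not read. Exons of Slc7a10 overlap Lrp3 on the opposite strand. Slc7a6 and Slc7a7 (y+LAT2 and y+LAT1) had DESeq2 adjusted p of 0.929 and 0.832. The light chains under 10 counts were Slc7a9, Slc7a12, Slc7a13 and Slc7a15, and the heavy chain Slc3a1 (rBAT), at 19.0 ± 11.3 and 17.4 ± 12.6 (SD, n = 4), had a DESeq2 adjusted p of 0.994.

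Of the cationic amino acid carriers, which take up arginine and lysine without a heavy chain, Slc7a1 was called lower. Slc7a1 (ENSMUSG00000041313) lies on the minus strand of chromosome 5, from 148327410 to 148399904, and its printed window lies directly before that start. Normalised counts were 1609, 1408, 1351 and 1236 in GFP- and 636, 1013, 741 and 829 in GFP+ replicates 1 to 4. No GFP+ library reached the lowest GFP- library. Slc7a1 was 1.74-fold lower in GFP+ cells, with a log2 ratio of -0.80 ± 0.20 (SE, adjusted p = 0.00132 by DESeq2 and 0.0230 by edgeR). Slc7a2 (CAT2) and Slc7a14 had log2 ratios of 0.96 ± 0.66 (SE) and 1.73 ± 0.81 (SE), with DESeq2 adjusted p of 0.440 and 0.183. Slc7a3 and Slc7a4 had fewer than 10 counts on average.

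System A carriers, which import small neutral amino acids and glutamine with sodium, gave 1 call among 3 genes, Slc38a1. Slc38a2 (SNAT2), the member with the highest mean normalised count, had 3588, 3432, 3901 and 4627 in GFP- and 3887, 4271, 5138 and 4923 in GFP+ replicates 1 to 4. The groups overlapped, with a log2 ratio of 0.23 ± 0.17 (SE, DESeq2 adjusted p = 0.467). Slc38a1 (SNAT1, ENSMUSG00000023169) had 752, 869, 945 and 1524 in GFP- and 33.3, 390, 78.4 and 347 in GFP+ replicates 1 to 4. All GFP+ libraries were below all GFP- libraries, and the GFP+ libraries fell into a low pair, replicates 1 and 3, and a higher pair, replicates 2 and 4. Slc38a1 was 4.81-fold lower in GFP+ cells, with a log2 ratio of -2.27 ± 0.76 (SE, adjusted p = 0.0357 by DESeq2 and 0.0422 by edgeR). That call was lost without any 1 of GFP- replicates 1 to 4, at DESeq2 adjusted p of 0.0705, 0.0900, 0.0707 and 0.173, and without independent filtering at 0.0670, with Slc38a1 lower in GFP+ in each.

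Slc38a1, Slc38a2 and Slc38a4 are neighbours on the minus strand of chromosome 15, at 96571418 to 96642913, 96687392 to 96699730 and 96994820 to 97055956. Slc38a4 (SNAT4) had a log2 ratio of -1.12 ± 0.85 (SE, DESeq2 adjusted p = 0.506), with means of 158.7 ± 103.9 in GFP- and 73.5 ± 77.5 in GFP+ libraries (SD, n = 4). Without GFP+ replicate 2, which had 183 beside 1.39 to 63.7 in the other GFP+ libraries, the log2 ratio was -2.09. The TPM ratio of Slc38a1 to Slc38a2 was 0.133 ± 0.026 in GFP- and 0.0238 ± 0.021 in GFP+ libraries (SD, n = 4), again chosen after the values were seen and not tested.

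None of 4 other carriers of family 38 and none of 3 proton-coupled carriers was called by DESeq2, or by edgeR, which did not test Slc36a2. Slc38a10 (SNAT10) had 2993 ± 741 in GFP- and 2719 ± 553 in GFP+ libraries (SD, n = 4, DESeq2 adjusted p = 0.805). Slc38a9, the lysosomal arginine sensor of mTORC1, had 148 ± 18.4 and 164 ± 26.8 (SD, n = 4), with a log2 ratio of 0.17 and a 95% interval from -0.35 to 0.68. Log2 ratios ran from -0.69 to 0.17 over the 4 genes, Slc38a6 and Slc38a7 included. The proton-coupled carriers are found at the lysosome and cell surface. Their log2 ratios were -0.31 for Slc36a1 and 0.40 for Slc36a4, with DESeq2 adjusted p of 0.611 and 0.300. Slc36a2, at the minimum count only in GFP+ libraries, had a DESeq2 adjusted p of 0.195 and is not read. System N, the carriers Slc38a3 and Slc38a5, stayed under 10 counts on average, as did Slc38a8, Slc38a11 and Slc36a3.

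In family 43, Slc43a3 was higher in GFP+ cells. Slc43a3 lies on the plus strand of chromosome 2, from 84936579 to 84958509, beside Slc43a1 at 84838850 to 84863594. Normalised counts of Slc43a3 were 1855, 1458, 1516 and 1127 in GFP- and 3137, 2247, 2733 and 2238 in GFP+ replicates 1 to 4. The lowest GFP+ libraries, replicates 2 and 4, were above the highest GFP- library, replicate 1. Slc43a3 was 1.74-fold higher, with a log2 ratio of 0.80 ± 0.21 (SE, adjusted p = 0.00267 by DESeq2 and 0.0229 by edgeR). Its neighbour Slc43a1 (LAT3), a facilitator of branched-chain amino acids, had a log2 ratio of 0.44 ± 0.36 (SE, DESeq2 adjusted p = 0.539). Slc43a2 (LAT4) had a log2 ratio of 0.03 ± 0.46 (SE, DESeq2 adjusted p = 0.982).

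Family 6 held the member with the smallest p. Slc6a17 (ENSMUSG00000027894, also called NTT4) encodes a carrier of neutral amino acids known from synaptic vesicles, and lies on the minus strand of chromosome 3, from 107467543 to 107518018. Its normalised counts were 734, 653, 418 and 934 in GFP- and 110, 79.5, 59.9 and 140 in GFP+ replicates 1 to 4. The lowest GFP- library, replicate 3, was far above the highest GFP+ library, replicate 4. Slc6a17 was 7.12-fold lower in GFP+ cells, with a log2 ratio of -2.83 ± 0.33 (SE, adjusted p = 1.86e-14 by DESeq2 and 0.00102 by edgeR). The other amino acid carriers of the family, the glycine carrier Slc6a9, the proline carrier Slc6a7 and Slc6a15, had DESeq2 adjusted p of 0.564, 0.898 and 0.238.

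The remaining carriers of family 6 gave no call. Slc6a6, which takes up taurine, had 1134, 665, 1088 and 1079 in GFP- and 760, 750, 611 and 695 in GFP+ replicates 1 to 4. GFP- replicate 2 alone lay within the GFP+ range, and the log2 ratio was -0.49 ± 0.22 (SE, DESeq2 adjusted p = 0.152). Without GFP- replicate 2 these were -0.65 and 0.00995. Slc6a6 passed the threshold in only that 1 of the 18 other settings, over which its DESeq2 adjusted p went up to 0.366. Slc6a8, the creatine carrier, had 635 ± 74.6 in GFP- and 621 ± 106.5 in GFP+ libraries (SD, n = 4), with a log2 ratio of -0.05 and a 95% interval from -0.43 to 0.34. Slc6a12 (betaine and GABA) and the monoamine carriers Slc6a2 and Slc6a4 had DESeq2 adjusted p of 0.979, 0.453 and 0.994. Among those under 10 counts were Slc6a3, Slc6a5, Slc6a11, Slc6a13, Slc6a14, Slc6a16, Slc6a18, Slc6a19 and Slc6a21.

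**Figure D2:**
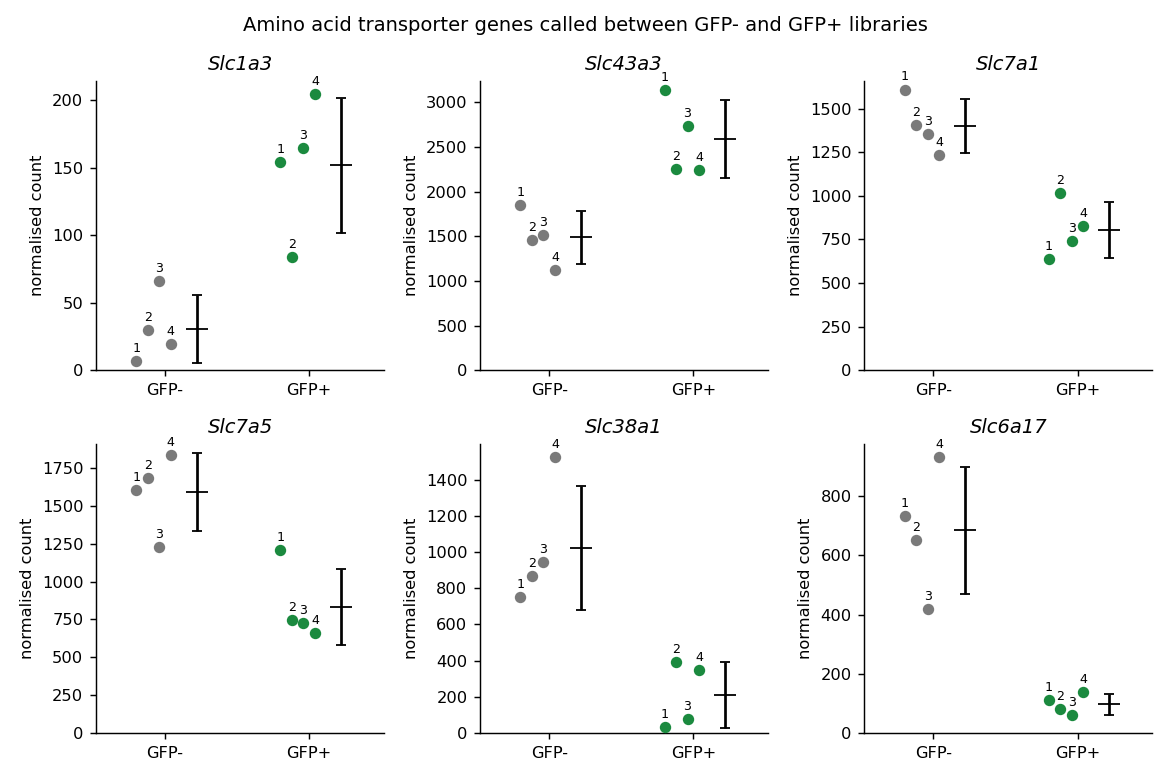
Normalised counts of the 6 called transporter genes (vertical axes, linear and starting at 0) in the GFP- and GFP+ libraries. Points are libraries, numbered by replicate, and bars show the mean and SD of 4. In none of the 6 do the groups overlap, and Slc7a5 has its narrowest gap between GFP+ replicate 1 at 1208 and GFP- replicate 3 at 1231.

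Levels of different genes were compared per length, in TPM. In GFP- libraries Slc38a10, Slc38a2, Slc7a5 and Slc3a2 led with 110 ± 21.4, 106 ± 18.2, 102 ± 15.2 and 98.7 ± 15.9 TPM (SD, n = 4), and these neighbours differed by less than their SDs. Slc43a3 and Slc1a5 followed at 79.4 ± 13.5 and 67.3 ± 14.1 TPM (SD, n = 4). In GFP+ libraries Slc43a3 and Slc38a2 led with 113 ± 13.2 and 102 ± 20.0 TPM (SD, n = 4), also within their SDs. Slc38a10, Slc1a5 and Slc3a2 followed at 83.2 ± 15.9, 78.5 ± 14.4 and 70.0 ± 10.4 TPM (SD, n = 4), and Slc7a5 stood at 43.9 ± 10.6 TPM (SD, n = 4). The called genes with the largest fold changes were at lower levels. Slc6a17 was at 15.8 ± 4.82 and 1.85 ± 0.628 TPM, Slc38a1 at 14.3 ± 5.16 and 2.68 ± 2.55 TPM, and Slc1a3 at 0.886 ± 0.779 and 3.41 ± 0.887 TPM (SD, n = 4) in GFP- and GFP+ libraries.

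**Figure D3:**
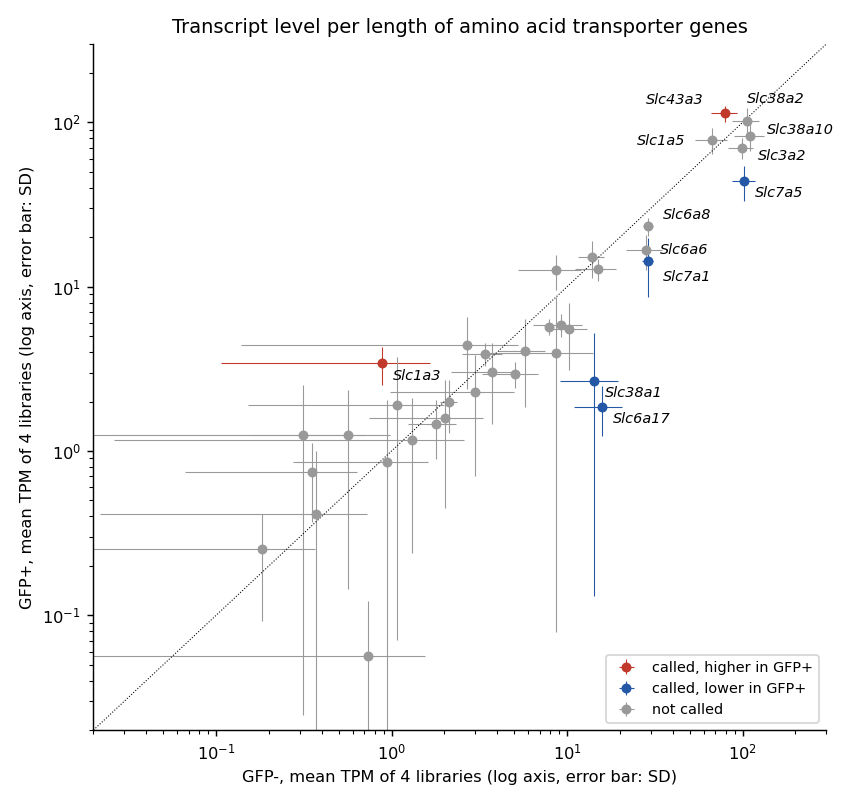
Mean TPM of 37 transporter genes in GFP- (horizontal) and GFP+ libraries (vertical), both on log axes, with SD of 4 libraries as bars that are cut at the axis where they reach 0. The dotted line marks equal levels, and Slc7a10, at 0 in GFP-, is left out. Slc7a5 (102 and 43.9 TPM), Slc38a1 and Slc6a17 lie below the line and Slc43a3 and Slc1a3 above it.

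Summed over the 61 genes, transporter transcripts made up 793 ± 27.9 TPM in GFP- and 652 ± 91.7 TPM in GFP+ libraries (SD, n = 4), with GFP+ replicate 2 (786) inside the GFP- range of 751 to 810. As shares of this sum, light chains of the exchangers took 16.9% ± 1.55 in GFP- and 11.7% ± 1.40 in GFP+, and family 43 took 10.9% ± 1.43 and 18.5% ± 1.57 (SD, n = 4). The alanine, serine, cysteine and glutamine exchangers took 9.46% ± 1.56 and 12.9% ± 0.579, and the amino acid carriers of family 6 took 2.82% ± 0.560 and 0.871% ± 0.235 (SD, n = 4). System A took 16.2% ± 2.12 and 16.7% ± 3.38 (SD, n = 4). These sums and shares are descriptions and were not tested. Class sums had been planned in normalised counts and are given as TPM shares instead. TPM and normalised counts scale a library differently and need not move alike. Slc38a2 had means of 106 and 102 TPM but of 3887 and 4555 normalised counts in GFP- and GFP+ libraries. The sum over the 61 genes was not taken in normalised counts.

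The called members were set beside the melanocyte marker sum of each library, since the groups differed in that sum. It was 58756, 53797, 28633 and 85532 normalised counts in GFP- replicates 1 to 4 and 5787, 9251, 6410 and 14776 in GFP+ replicates 1 to 4. Within GFP- libraries, Slc6a17 and the marker sum were both highest in replicate 4, then 1, 2 and 3, and within GFP+ libraries both were highest in replicate 4. GFP+ replicate 1, with the smallest marker sum, had the next highest Slc6a17 of that group. Slc38a1 was highest in GFP- replicate 4, and within GFP+ it was lowest in replicates 1 and 3, the libraries with the smallest marker sums. GFP- replicate 3, which had the smallest marker sum of its group, had the next highest Slc38a1 after replicate 4, and GFP- replicate 1 the lowest. Slc7a5 was highest in GFP- replicate 4 and lowest in GFP- replicate 3, whereas in GFP+ it was highest in replicate 1, where the marker sum was smallest. Slc7a1 was lowest among GFP- libraries in replicate 4, where the marker sum was largest, and among GFP+ libraries in replicate 1, where it was smallest. Slc1a3 was highest in GFP+ replicate 4, where the marker sum was the largest of that group, and highest among GFP- libraries in replicate 3, where it was the smallest. Slc43a3 was lowest in GFP- replicate 4 and highest in GFP+ replicate 1, which also had the lowest and highest fibroblast marker sums. The part of these markers in the transporter results was not tested, and in sorted bulk RNA fewer cells of a type and less RNA per cell cannot be told apart.

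**Figure D4:**
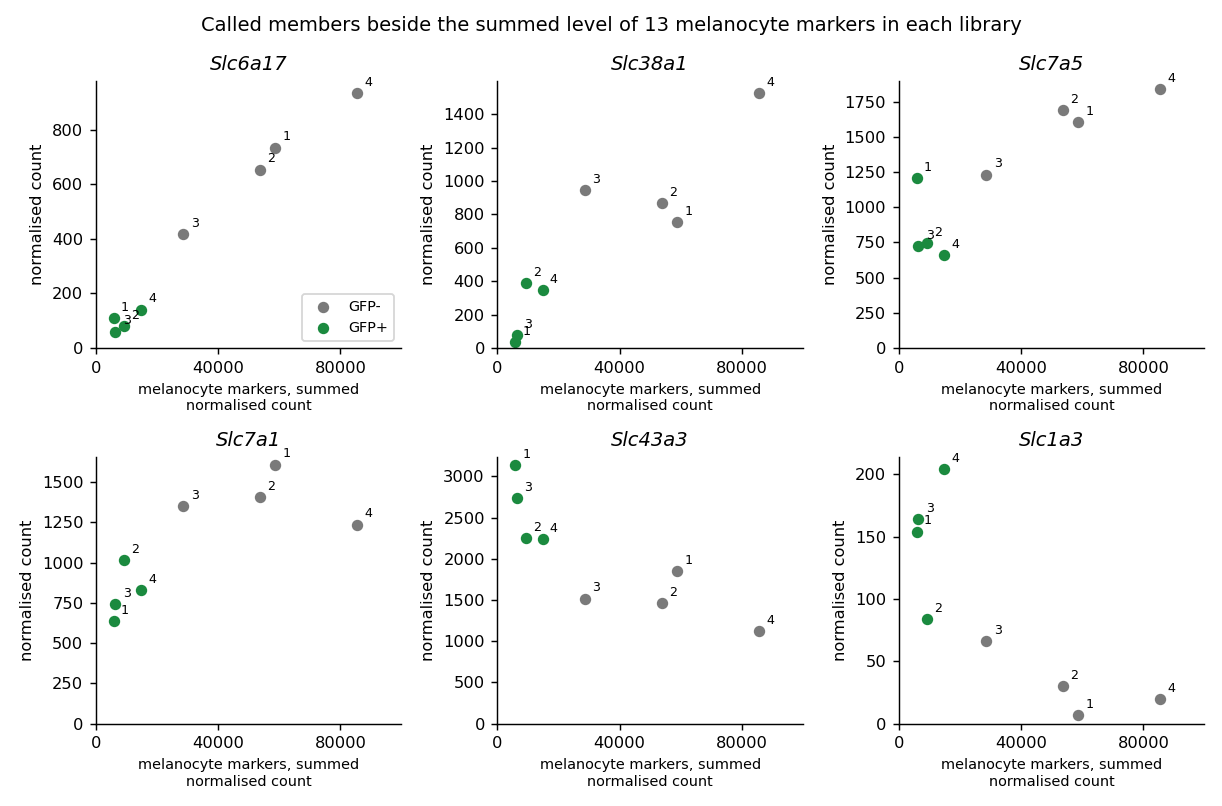
Normalised count of each called transporter gene (vertical axes) against the summed normalised count of 13 melanocyte markers (horizontal axes), per library, with replicate numbers. GFP- libraries lie at 28630 to 85530 and GFP+ libraries at 5787 to 14780 on the horizontal axis, and points are libraries of 2 groups, so that no correlation is given.

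Genes that use, sense or respond to amino acids were examined next. The amino acid response list, mostly known targets of ATF4, had 5 of 24 tested genes lower and 3 higher, or 20.8% and 12.5% beside 4.76% and 4.66% of all genes. Its median log2 ratio was -0.34, beside -0.008 over all genes tested. The melanocyte markers were lower in the same GFP+ libraries, at sums of 5787 to 14780 beside 28630 to 85530 in GFP-, and their part in the values of this list and of the other lists was not tested. The lower genes were Ddit3, Chac1, Trib3, Shmt2 and Mthfd2. Ddit3, a transcription factor of the stress response, went from 324 ± 126 to 111 ± 59.7 normalised counts (SD, n = 4), a log2 ratio of -1.56 (DESeq2 adjusted p = 0.00757). Trib3, a pseudokinase that restrains ATF4, went from 95.2 ± 48.3 to 13.7 ± 10.1, and Chac1, a glutathione-degrading enzyme, from 30.2 ± 14.7 to 2.94 ± 2.69 (SD, n = 4), with DESeq2 adjusted p of 0.00390 and 0.00498.

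The higher genes of that list were Vldlr, Atf3 and Ppp1r15a. Vldlr, a lipoprotein receptor, rose from 323 ± 115 to 663 ± 87.1 normalised counts (SD, n = 4, DESeq2 adjusted p = 0.00435). Atf3, a stress-induced transcription factor, and Ppp1r15a, which reverses the block on translation, rose by 0.42 and 0.56 on the log2 scale, with DESeq2 adjusted p of 0.0178 and 0.0256. Atf4 itself had 2932 ± 287 and 2791 ± 316 normalised counts (SD, n = 4), a log2 ratio of -0.08 (DESeq2 adjusted p = 0.840). The edgeR test called 2 genes of the list, Shmt2 and Vldlr, with adjusted p of 0.0318 and 0.0337.

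Enzymes of amino acid metabolism had 3 of 40 tested genes lower and 1 higher, or 7.5% and 2.5% beside 4.76% and 4.66% of all genes, with a median log2 ratio of -0.36. Got2, the mitochondrial aspartate aminotransferase, Shmt2, the mitochondrial serine hydroxymethyltransferase, and Bcat1, the cytosolic branched-chain aminotransferase, had log2 ratios of -1.12, -1.46 and -0.94, with DESeq2 adjusted p of 7.26e-04, 0.00316 and 0.0184 and edgeR adjusted p of 0.0210, 0.0318 and 0.0587. Gldc, of the glycine cleavage system, had 2.14 (adjusted p = 0.0111 by DESeq2 and 0.163 by edgeR). Of 34 genes of mTORC1 amino acid sensing 1 was lower, or 2.94%, namely Sec13, at -0.56 (adjusted p = 0.0450 by DESeq2 and 0.121 by edgeR), and the median was -0.21.

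Other amino acid and peptide carriers had 1 gene higher and 1 lower of 21 tested, with a median log2 ratio of 0.09. That is 4.76% in each direction, close to the 4.66% higher and 4.76% lower of all genes. Slc25a13, a mitochondrial aspartate and glutamate carrier, went from 319 ± 88.3 to 56.9 ± 13.2 normalised counts (SD, n = 4), a log2 ratio of -2.47 (adjusted p = 1.93e-12 by DESeq2 and 0.00138 by edgeR). The 20 aminoacyl-tRNA synthetases, which load amino acids onto tRNAs, all had negative log2 ratios, beside 50.5% of all genes tested, with a median of -0.39. By DESeq2 and by edgeR 0 of them passed the threshold, and 8 had an unadjusted p under 0.05, beside 21% of all genes tested.

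**Figure D5:**
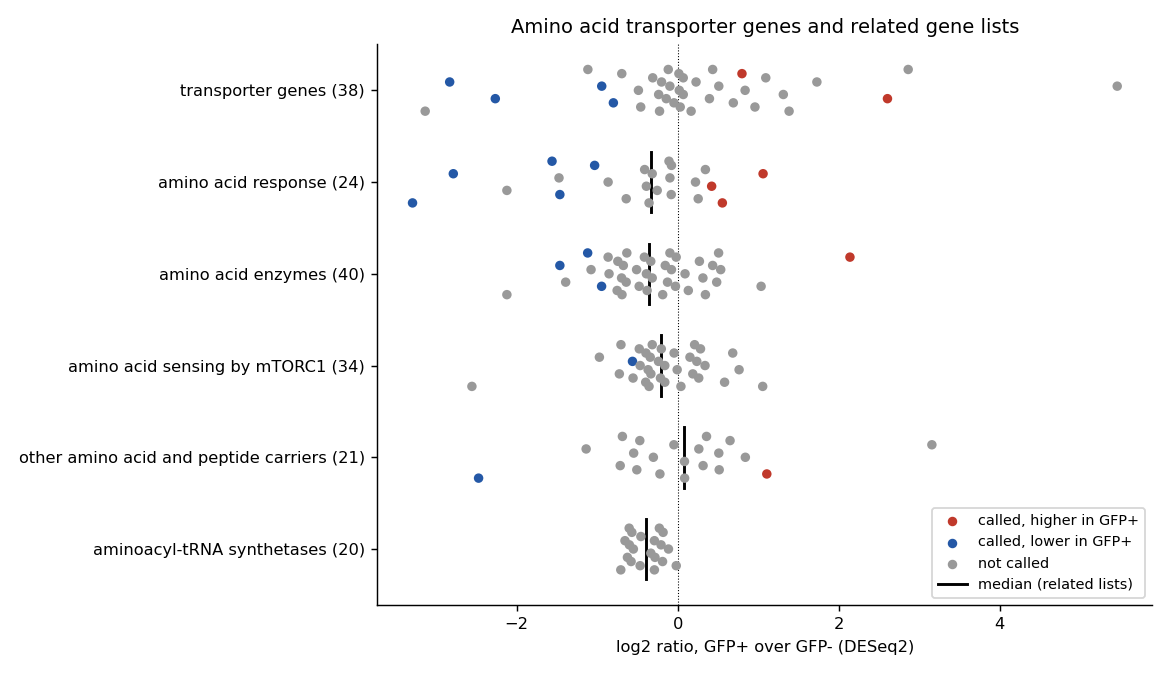
Log2 ratio, GFP+ over GFP- (horizontal axis), of the 38 transporter genes and of tested genes in 5 related lists, with the number of genes in brackets. Points are genes, coloured where DESeq2 called them, their vertical scatter has no meaning, and black bars are medians of the related lists. The medians of the related lists lie between -0.39 and 0.09, and none is drawn for the transporter genes.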

How the data were processed

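RNA was measured in 8 libraries (SMARTer Stranded Total RNA-Seq Kit v2, NextSeq), 4 GFP- and 4 GFP+, grouped by their titles. Per the study's methods and the submitters' processing notes, the authors trimmed reads with cutadapt 3.4, mapped them to GRCm38 with STAR 2.7.3a and counted them per Ensembl gene and strand with featureCounts 2.0.1. The deposited raw counts, in whole numbers with replicates kept apart, are the start of all values here. The deposited normalised score of each gene and library is the count divided by a DESeq2 size factor, and the size factors computed here gave the same values within rounding. The table also holds the authors' fold changes and p-values, which were not used. Per-sample columns left unused: 0. No pair of replicates agreed within sampling noise (chi-square per degree of freedom 9.68 to 73.0).

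The 29043 genes with a read in some library entered a fit by DESeq2 1.42.0 (R 4.3.3), with the group as the only term and two-sided Wald tests. The study's methods name DESeq2 with default normalisation and dispersions and independent filtering. Adjustment was by Benjamini-Hochberg over the 15283 genes left by independent filtering, with calls at an adjusted p under 0.05. The edgeR 4.0.16 quasi-likelihood test (TMM, filterByExpr) and limma 3.58.1 (voom) were run beside it. The code was tested on simulated data. Exon lengths and coordinates were taken from GENCODE M21, which held 99.82% of gene identifiers. Reads shared by close paralogs can be lost in counting.

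The transporter genes, the related lists and the marker lists were chosen with earlier results of these data known. Genes described in each library were called members. Of the others, the 10 members with the highest mean normalised count were to be given by group, related lists by up to 5 called genes in each direction, and Adam12 and Atf4 always. All further members named, and per-library values of members not called, were chosen after their values were seen. Lists for pericytes and smooth muscle (1 of 7 markers higher), keratinocytes, skeletal muscle and adipocytes were examined as well. In the last 3 lists only 2 of 6, 2 of 5 and 1 of 4 markers had an adjusted p, and DESeq2 called 0 of them, as did edgeR, with 1 adipocyte marker at an unadjusted p under 0.05. Some genes of these families and lists are counted but not reported by name here.

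Other settings were edgeR, limma, TMM factors in DESeq2, size factors from abundant genes only (mean of 100 raw counts or more), a minimum mean of 10, no filter on Cook's distance, no independent filtering, a stricter threshold of 0.01, a minimum log2 ratio of 1 in either direction, a block for the replicate number, and the omission of single libraries.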

Additional observations from a re-analysis of the deposited data

Results flagged for a closer look

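In 24 groups of 4 libraries, for the 10 transporter genes with the highest counts and the other called members, the most extreme library was set against the rest. A gap to the nearest library above Dixon's 95% critical value was found in 2 groups, and chance alone gives about 1 in 20. Slc7a5 in GFP+ replicate 1 had 1208 normalised counts, beside 657.9 to 746.4 in the other GFP+ libraries (gap 0.839 of the range). Without that library Slc7a5 had a log2 ratio of -1.17 and a DESeq2 adjusted p of 9.06e-08. Slc6a6 in GFP- replicate 2 had 665 normalised counts, beside 1079 to 1134 in the other GFP- libraries (gap 0.883 of the range).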

How the results depend on the processing

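Slc6a17 and Slc1a3 stayed called under all 18 other settings, and Slc7a5, Slc7a1 and Slc43a3 under all but a minimum absolute log2 ratio of 1, which left 1 transporter gene higher and 2 lower. Without 1 library, 2 to 4 transporter genes were higher and 3 or 4 lower. The 4 higher without GFP- replicate 3 include Slc7a10, which reached the minimum count only through GFP+ libraries and is not read. Slc38a1 lost its call in 6 settings, of which 4 left out a GFP- library. Slc1a5 passed the threshold in 5. The cause was not tested.

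Over all genes, 406 were higher and 328 lower by edgeR, 419 and 425 at an adjusted p under 0.01, and 374 and 550 at a minimum absolute log2 ratio of 1. Without 1 library, 460 to 937 were higher and 469 to 900 lower. In the related lists, 2 genes were higher and 3 lower by edgeR, 14 lower by limma, 2 higher at an adjusted p under 0.01 and 3 higher at a minimum absolute log2 ratio of 1. Leaving out 1 library gave 2 to 10 higher, the most without GFP- replicate 3 and the fewest without GFP+ replicate 3, and 5 to 15 lower, the fewest without GFP- replicate 4 and the most without GFP- replicate 3. Adam12 (0.75 on the log2 scale) was not called at an adjusted p under 0.01, at a minimum absolute log2 ratio of 1 or by edgeR (0.76), and ran from 0.60 to 0.87 without 1 library.

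Without 1 library, the log2 ratios of Slc7a2, Slc7a14, Slc1a1 and Slc38a4, which were not called, ran from 0.50 to 1.65, 0.97 to 2.09, 0.95 to 2.30 and -2.09 to -0.72, and limma gave 0.75 for Slc7a14. Some uncalled members changed sign. By limma the log2 ratios of Slc43a2, Slc7a11, Slc7a7 and Slc6a4 were -0.27, -0.12, 0.087 and -0.20, and with a minimum mean of 10 raw counts that of Slc3a1 was -0.0048. Without 1 library, Slc38a10 ran from -0.28 to 0.023, Slc6a8 from -0.14 to 0.035, Slc7a6 from -0.063 to 0.25, Slc43a2 from -0.42 to 0.25, Slc7a11 from -0.28 to 0.25, Slc38a6 from -0.44 to 0.39, Slc6a4 from -0.76 to 1.11, Slc3a1 from -0.41 to 0.52 and Slc6a12 from -1.43 to 0.64.

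The groups share replicate numbers, but nothing says that a number marks a shared mouse. The study's legend gives a single n of 4 for both fractions, which may therefore have been sorted from the same mice. Correlations of same-numbered libraries' deviations from their group means were 0.05, -0.158, -0.122 and 0.262. Only the libraries numbered 4 correlated best with each other. With 4 libraries in each group these values cannot show whether libraries were paired. The main fit did not use the numbers as pairs. With the replicate number as a block, 3 transporter genes were higher and 4 lower, 1492 genes were called, of which 1208 were among the 1439, and Slc43a2, Slc7a11 and Slc3a1 had log2 ratios of -0.085, -0.019 and -0.39. Depth limits GFP- replicate 3 most, where 1 read weighs about 11 normalised counts.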
